A study of Homo sapiens with 8 samples.

Results

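The integrated stress response and the unfolded protein response were followed through 37 genes in the human colorectal cancer cell line HCT116. The genes were chosen by symbol, from ATF4 and its known targets and from the sensors, chaperones and degradation factors of the endoplasmic reticulum (ER). All 37 had a probe set annotated to that gene alone, among 18417 genes measured. Total RNA was hybridised to Affymetrix arrays, 1 array per sample, in 4 groups of 2. These were shCDK8 cells given 10% fetal bovine serum for 30 min after 40 h without serum, shCDK8 cells harvested at 40 h without serum, and shControl cells under the same 2 conditions. The shCDK8 line expressed a short hairpin RNA against CDK8, a kinase of the Mediator complex, and the shControl line a control hairpin. Each line carried a single hairpin, so a line difference cannot be told apart from other differences between these lines. All 8 samples, the starved controls included, had gone through the 40 h of starvation, and no unstarved or ER-stressed cells are compared here. Separate cultures for the duplicates are not stated in the labels. The spread behind the p-values is that between the sampled duplicates and may be technical.

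Array medians lay between 7.07 and 7.11 on the log2 scale, and duplicate arrays correlated with r between 0.997 and 0.998 across genes. The targeted gene was read on a probe set annotated to both CDK8 and ADRA1B, which averaged 7.05 in serum-treated and 7.04 in starved shCDK8 cells, against 9.20 and 9.22 in the shControl cells of the same conditions. It was 4.45-fold lower in shCDK8 cells after serum and 4.53-fold lower in starved cells. Of 7 colon epithelial markers, 6 lay above the array median (VIL1 was lowest at 5.38), while none of 3 blood and none of 3 endothelial markers did. Of 4 fibroblast markers only COL1A1 did.

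When misfolded proteins build up in the ER, the membrane sensors PERK (EIF2AK3), IRE1 (ERN1) and ATF6 start the unfolded protein response. PERK and the amino acid sensor GCN2 (EIF2AK4) phosphorylate the translation factor eIF2, which slows protein synthesis in general but favours translation of ATF4, so ATF4 protein can change with little change in its mRNA. ATF4 then drives genes of amino acid supply and of feedback, such as the phosphatase subunit PPP1R15A, whereas ATF6 and the spliced form of XBP1 drive chaperones and the machinery of ER-associated degradation. Several of these genes, DDIT3 and PPP1R15A among them, also respond to other stresses and to growth factors.

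Some promoters of the genes carry the elements for which these arms are known, and 8 stretches are shown because they hold such matches in genes described by array or by role here. Promoter windows of 300 bases (250 before to 50 after the annotated start, RefSeq, GRCh38.p14) were given for 35 of the 37 genes, in 46 entries, and NUPR1 and SHMT2 had no entry. The ER stress response element ERSE was searched as CCAAT and CCACG with 9 unspecified bases (N) between them. ERSE-II was searched as ATTGG and CCACG with 1 between them. The C/EBP-ATF response element CARE was taken as TGATGNAA, the cAMP response element CRE as TGACGTCA and the AP-1 pattern as TGANTCA. Each was searched on both strands. The AP-1 pattern allows any middle base, so it is looser than the AP-1 consensus, TGACTCA or TGAGTCA. No matches of different elements overlapped. ERSE matches stood in HSPA5, HSP90B1, XBP1, CALR and PDIA6, 5 of the 35 genes, and in 0.0769% of all 35116 promoters. ERSE-II matches stood in HERPUD1 and SDF2L1 and in 0.0541% of all promoters. CARE matched 6 of the genes (ASNS, CHAC1, HERPUD1, AARS1, CEBPG and PPP1R15B) and 3.62% of all promoters. CRE matched only PPP1R15A among the genes with a promoter, against 1.85% of all promoters. The looser AP-1 pattern matched DDIT3, HSPA5 and EIF2AK4, against 7.71%. The CArG box, the site of serum response factor, matched none of the 35 genes and 1.29% of all promoters. A match is a run of letters and was not tested as a binding site. The genes were picked as known pathway members, so these shares describe them and are not a result of the arrays.

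The stretches lie at chr9:125241366-125241552 (HSPA5, minus strand), chr12:103930191-103930364 (HSP90B1, plus strand), chr22:28800578-28800646 (XBP1, minus strand), chr16:56931941-56932060 (HERPUD1, plus strand), chr7:97872444-97872501 (ASNS, minus strand), chr15:40953237-40953294 (CHAC1, plus strand), chr19:48872338-48872395 (PPP1R15A, plus strand) and chr12:57520724-57520764 (DDIT3, minus strand), all upstream of the start of transcription. They are written 5′ to 3′ on the strand of the gene. Capitals mark ERSE in HSP90B1 and XBP1, the AP-1 pattern and then ERSE in HSPA5, and CARE and then ERSE-II in HERPUD1. They mark CARE in ASNS and CHAC1, CRE in PPP1R15A and the AP-1 pattern in DDIT3. The AP-1 pattern match reads TGAATCA in HSPA5, which is not the consensus, and TGACTCA in DDIT3, which is. In HERPUD1 and CHAC1 the CARE match, and in HSP90B1 the ERSE match nearer the start, reads on the opposite strand.
HSPA5: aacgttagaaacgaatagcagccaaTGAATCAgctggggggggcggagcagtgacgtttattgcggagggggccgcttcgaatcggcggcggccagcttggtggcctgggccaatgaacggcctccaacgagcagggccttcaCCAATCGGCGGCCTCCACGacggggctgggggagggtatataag
HSP90B1: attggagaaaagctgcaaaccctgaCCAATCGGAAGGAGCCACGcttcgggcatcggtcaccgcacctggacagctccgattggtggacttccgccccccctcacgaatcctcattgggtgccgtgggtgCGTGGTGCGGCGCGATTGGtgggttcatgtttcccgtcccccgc
XBP1: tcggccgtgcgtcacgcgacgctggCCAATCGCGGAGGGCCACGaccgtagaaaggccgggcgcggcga
HERPUD1: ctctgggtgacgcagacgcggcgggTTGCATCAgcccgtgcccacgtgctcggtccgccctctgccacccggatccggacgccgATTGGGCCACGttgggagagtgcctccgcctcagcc
ASNS: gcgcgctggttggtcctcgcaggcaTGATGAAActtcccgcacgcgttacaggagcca
CHAC1: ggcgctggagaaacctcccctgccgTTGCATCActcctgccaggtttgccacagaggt
PPP1R15A: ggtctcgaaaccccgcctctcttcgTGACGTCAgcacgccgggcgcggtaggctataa
DDIT3: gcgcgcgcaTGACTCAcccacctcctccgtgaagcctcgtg

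**Figure D1:**
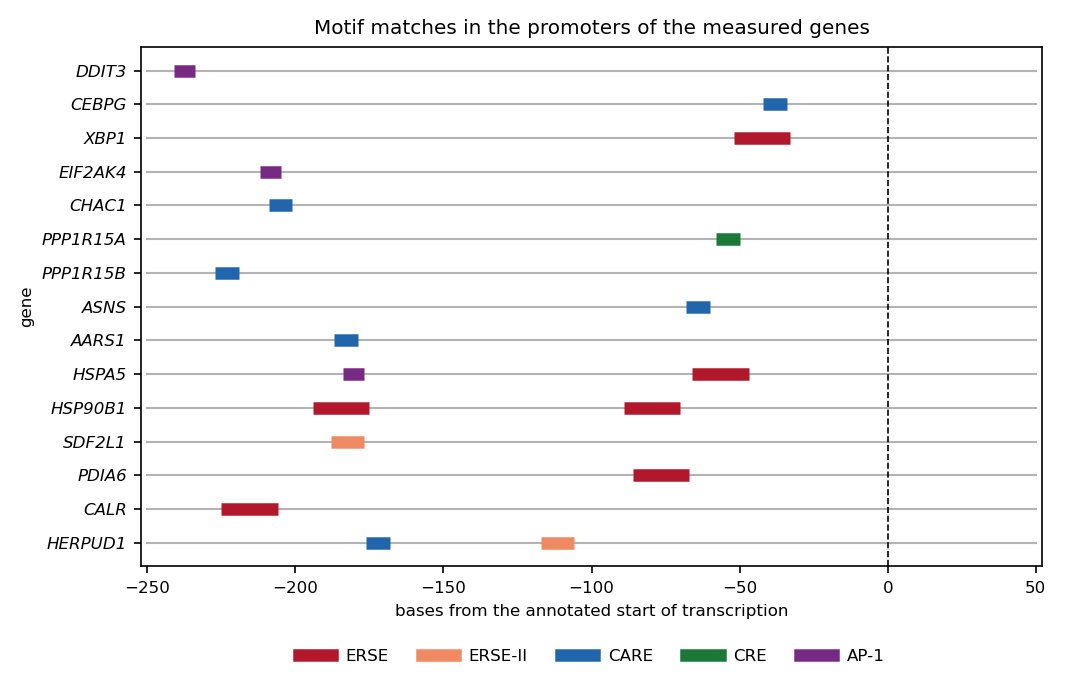
Positions of the motif matches in the promoters of the genes that held one, with bases from the annotated start of transcription on the x axis (250 before to 50 after) and 1 gene per row. Coloured bars are matches to ERSE, ERSE-II, CARE, CRE or AP-1. All matches lie before the start.

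Over the 8 arrays most of the genes varied little. The difference between the highest and lowest array had a median of 0.25 log2 units over the 37 genes and ran from 0.13 to 1.04, against a median of 0.31 over all genes. It reached 0.5 in 4 of the 37 genes (DDIT3, DDIT4, PPP1R15A and PPP1R15B) and in 2833 of 18417 genes in all. DDIT3 encodes CHOP, a transcription factor of stress-induced cell death, and DDIT4 encodes REDD1, an inhibitor of mTORC1. PPP1R15A (GADD34) and PPP1R15B (CReP) encode the inducible and the constitutive subunit that direct a phosphatase to eIF2.

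**Figure D2:**
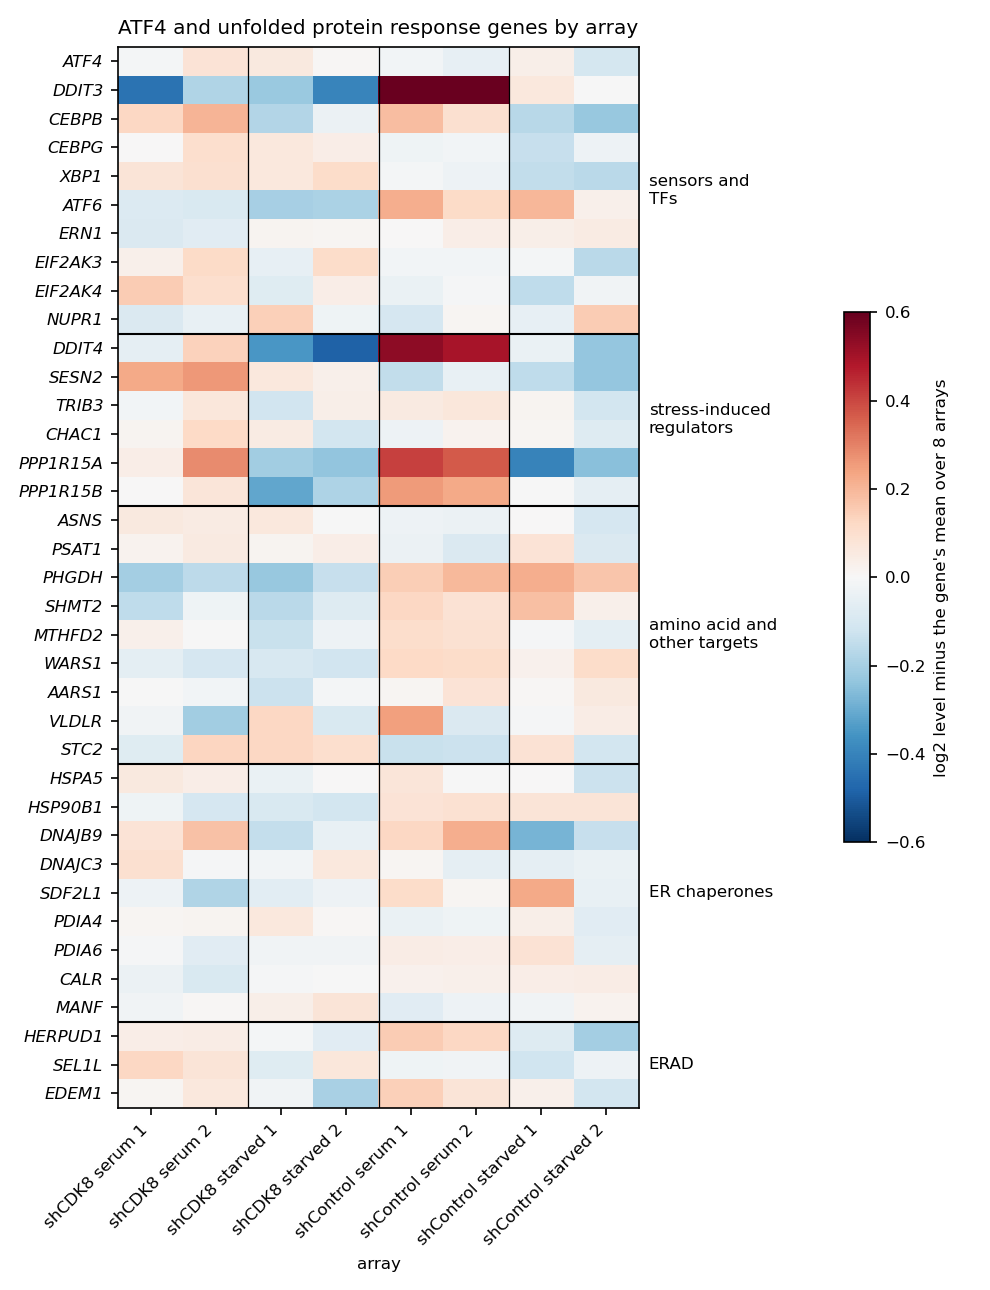
Heat map of the 37 genes (rows, grouped by role) on the 8 arrays (columns, 2 per group). Colour is the log2 level minus the gene's own mean over the 8 arrays. DDIT3, DDIT4 and PPP1R15A, with ranges of at least 0.5, stand out from rows that are nearly even.

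Among sensors and transcription factors, ATF4 itself read 10.86 and 10.95 in serum-treated and 10.93 and 10.88 in starved shCDK8 cells, and 10.86 and 10.82 in serum-treated and 10.91 and 10.77 in starved shControl cells. Serum and starved arrays overlapped in each line, and the lines overlapped in starved cells, while after serum both shCDK8 arrays lay just above the shControl arrays. Its serum change had a 95% interval of -0.16 to 0.16 in shControl cells (adjusted p = 1.00) and the difference between lines was 0.07 both after serum (0.635) and in starved cells (0.646). ATF4 has a further probe set, on which serum moved the level by -0.15 in shCDK8 cells and by -0.10 in shControl cells, neither past the threshold. Between lines that probe set went the other way, by -0.08 after serum and -0.04 in starved cells, also not past the threshold. ERN1 lay between 7.16 and 7.30 on all arrays, EIF2AK3 between 7.51 and 7.79, EIF2AK4 between 9.03 and 9.34, and CEBPG, a bZIP partner of ATF4, between 8.04 and 8.27. NUPR1, a small stress-induced nuclear protein, lay between 6.14 and 6.40, below the array medians. None of these 6 genes passed the test in any of the 7 contrasts.

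Most of the other targets in amino acid supply and feedback also stayed in narrow bands. ASNS, asparagine synthetase, lay between 8.23 and 8.39, PSAT1, an enzyme of serine synthesis, between 8.76 and 8.93, and MTHFD2, a mitochondrial folate enzyme, between 10.67 and 10.91. The alanyl-tRNA synthetase AARS1 lay between 10.13 and 10.34 and the secreted glycoprotein STC2 between 6.55 and 6.81. The lipoprotein receptor VLDLR lay between 4.79 and 5.24, a wider range of 0.46. TRIB3, a pseudokinase that restrains ATF4 and DDIT3, lay between 7.08 and 7.26, and CHAC1, which breaks down glutathione, between 6.55 and 6.78. Every value of VLDLR, STC2 and CHAC1 lay below the array medians, and the deposited values carry no detection call. None of these 8 genes passed in any contrast, nor did the further probe set of MTHFD2, whose line difference averaged over both conditions was -0.16 (adjusted p over all probe sets = 0.100).

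Most ER chaperones and degradation factors gave narrow bands as well. HSPA5 (BiP), the main ER chaperone of the HSP70 family, lay between 11.42 and 11.62, the disulphide isomerases PDIA4 and PDIA6 between 11.06 and 11.19 and between 11.62 and 11.77, and the lectin chaperone CALR between 11.06 and 11.20. The co-chaperones DNAJC3 and SDF2L1 lay between 8.42 and 8.57 and between 7.68 and 8.09, and the secreted ER protein MANF between 10.37 and 10.52. HERPUD1 lay between 8.99 and 9.35, SEL1L, the adaptor of the HRD1 ubiquitin ligase, between 8.66 and 8.90, and EDEM1, which recognises trimmed glycans on misfolded proteins, averaged 7.23 after serum and 7.08 in starved shCDK8 cells and 7.30 after serum and 7.15 in starved shControl cells. None of these 10 genes passed in any contrast.

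The first comparison asked what 30 min of serum did in the shControl line. There 3 of the 37 genes rose and none fell, where 0.424% of all genes rose and 0.038% fell (limma, Benjamini-Hochberg adjusted p below 0.05 over all genes). The risers were PPP1R15A, DDIT4 and DDIT3, that is 2 of 6 stress-induced regulators and 1 of 10 sensors and transcription factors, and none of 9 amino acid and other ATF4 targets, 9 chaperones or 3 degradation factors. At an unadjusted p below 0.05 there were 7 of the 37 genes and 1662 of all genes. The median change was 0.05 over the 37 genes and -0.01 over all genes. In RNA of whole cultures, a change in the number of expressing cells and a change in RNA per cell cannot be told apart.

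PPP1R15A read 8.98 and 8.94 in serum-treated and 8.17 and 8.32 in starved shControl cells. It rose by 0.72 ± 0.09 (SE), or 1.64-fold (adjusted p = 0.00784). Both serum arrays stood above both starved arrays.

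DDIT4 read 8.36 and 8.31 after serum and 7.78 and 7.59 in starved shControl cells, a rise of 0.65 ± 0.09 or 1.57-fold (adjusted p = 0.0149), without overlap. DDIT3 read 6.72 and 6.72 after serum and 6.19 and 6.12 in starved shControl cells, a rise of 0.56 ± 0.10 or 1.48-fold (adjusted p = 0.0425). Its duplicates were close in both groups, which did not overlap. All 8 DDIT3 values lay below the array medians, and the deposited values carry no detection call. The DDIT3 call ended without any 1 of the 4 shControl arrays or either starved array of shCDK8 (adjusted p = 0.0536 to 0.317). Those of DDIT4 and PPP1R15A ended without either serum array of shControl, or without its starved array 2 for DDIT4 (0.108 to 0.148) and its starved array 1 for PPP1R15A (0.0660 to 0.0758). None of the 37 genes passed when serum array 1 or serum array 2 of shControl was left out.

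The same comparison in shCDK8 cells called none of the 37 genes, where 0.25% of all genes rose and 0.00543% fell. At an unadjusted p below 0.05 there were 6 of the 37 genes and 1766 of all genes. When the variance prior followed intensity, 3 of the 37 passed (DDIT4, PPP1R15A and PPP1R15B), and the share of all genes under that prior is not given here. The median change was 0.03, against -0.01 over all genes. DDIT4 read 7.77 and 7.96 after serum and 7.47 and 7.33 in starved shCDK8 cells, a change of 0.46 ± 0.09 (adjusted p = 0.135). PPP1R15A read 8.61 and 8.86 after serum and 8.36 and 8.33 in starved shCDK8 cells, a change of 0.39 ± 0.09 (adjusted p = 0.243). For both genes the serum arrays stood above the starved arrays. DDIT3 read 5.68 and 5.94 after serum and 5.90 and 5.72 in starved shCDK8 cells, and these groups overlapped. Its change had a 95% interval of -0.22 to 0.21 (adjusted p = 0.993).

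**Figure D3:**
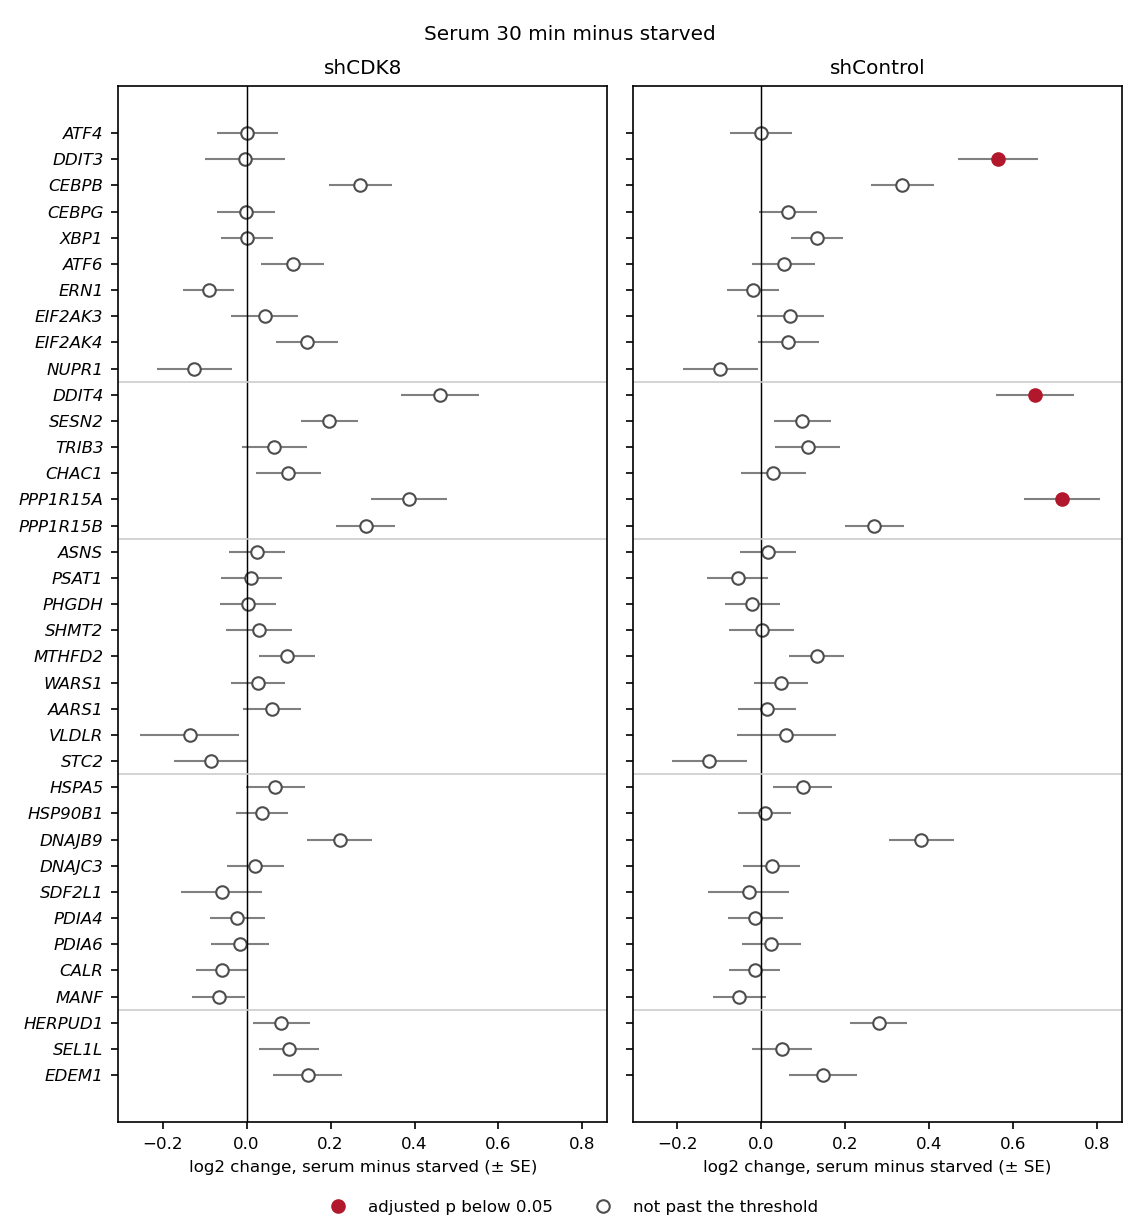
Log2 change with serum (serum minus starved, ± SE) for each of the 37 genes in shCDK8 cells (left) and shControl cells (right), with filled points for an adjusted p below 0.05. DDIT3, DDIT4 and PPP1R15A are filled in the shControl panel, and none is filled in the shCDK8 panel.

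Whether the lines differed in their response was tested as the difference of the serum changes, shCDK8 minus shControl. It passed for none of the 37 genes and for 0% of all genes (limma). At an unadjusted p below 0.05 there were 2 of the 37 genes, DDIT3 and PPP1R15A, and 703 of all genes. DDIT3 differed by -0.57 ± 0.13 (95% interval -0.87 to -0.27, unadjusted p = 0.00201, adjusted p = 0.910). PPP1R15A differed by -0.33 ± 0.13 (interval -0.62 to -0.04, unadjusted p = 0.0281) and DDIT4 by -0.19 ± 0.13 (interval -0.49 to 0.10). The DDIT3 call in one line and not in the other is therefore not shown to be a difference between lines once all genes are considered. The median difference was -0.02 over the 37 genes and 0.01 over all genes.

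Averaged over both lines, 5 of the 37 genes rose with serum and none fell, where 0.684% of all genes rose and 0.076% fell. They were PPP1R15A (0.55 ± 0.06, adjusted p = 0.00273), DDIT4 (0.56 ± 0.07, 0.00310), CEBPB, PPP1R15B and DNAJB9. The first 2 passed whichever array was left out. The averaged change of DDIT3 was 0.28 ± 0.07 (adjusted p = 0.140). The median change was 0.04 over the 37 genes and -0.01 over all genes.

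CEBPB, a bZIP factor that pairs with ATF4 and is also made in response to growth signals, read 8.18 and 8.26 after serum and 7.88 and 8.02 in starved shCDK8 cells, and 8.24 and 8.15 after serum and 7.89 and 7.83 in starved shControl cells. It rose by 0.30 ± 0.05 (adjusted p = 0.0350). Serum arrays lay above starved arrays in each line.

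PPP1R15B read 9.66 and 9.72 after serum and 9.34 and 9.47 in starved shCDK8 cells, and 9.91 and 9.88 after serum and 9.65 and 9.60 in starved shControl cells, a rise of 0.28 ± 0.05 (adjusted p = 0.0407). DNAJB9 (ERdj4), an ER co-chaperone of HSPA5, read 7.08 and 7.17 after serum and 6.86 and 6.95 in starved shCDK8 cells, and 7.12 and 7.22 after serum and 6.72 and 6.86 in starved shControl cells. It rose by 0.30 ± 0.06 (adjusted p = 0.0447). Both genes separated serum from starved arrays in each line. These 3 calls were close to the threshold: that of CEBPB ended without any 1 array but starved array 2 of shCDK8 (adjusted p = 0.0641 to 0.162), and those of PPP1R15B (0.0563 to 0.186) and DNAJB9 (0.0637 to 0.206) without any 1 of the 8.

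Both serum arrays lay above both starved arrays in each line for 10 of the 37 genes, where 6.4% of all genes did, and below them for 2, CALR and MANF, where 7.48% did. Besides the 5 genes above, the 10 were SESN2, MTHFD2, HERPUD1, SEL1L and EDEM1, so all 3 degradation factors were among them, none past the threshold. HERPUD1, an ER membrane protein of the degradation complex, read 9.23 and 9.24 after serum and 9.18 and 9.12 in starved shCDK8 cells, and 9.35 and 9.32 after serum and 9.11 and 8.99 in starved shControl cells. Its change was 0.08 ± 0.07 in shCDK8 and 0.28 ± 0.07 in shControl cells (adjusted p = 0.720 and 0.231). The ERSE genes had small serum values: in shControl cells HSPA5 moved by 0.10, HSP90B1 by 0.01, XBP1 by 0.13, PDIA6 by 0.02 and CALR by -0.02, none past the threshold.

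**Figure D4:**
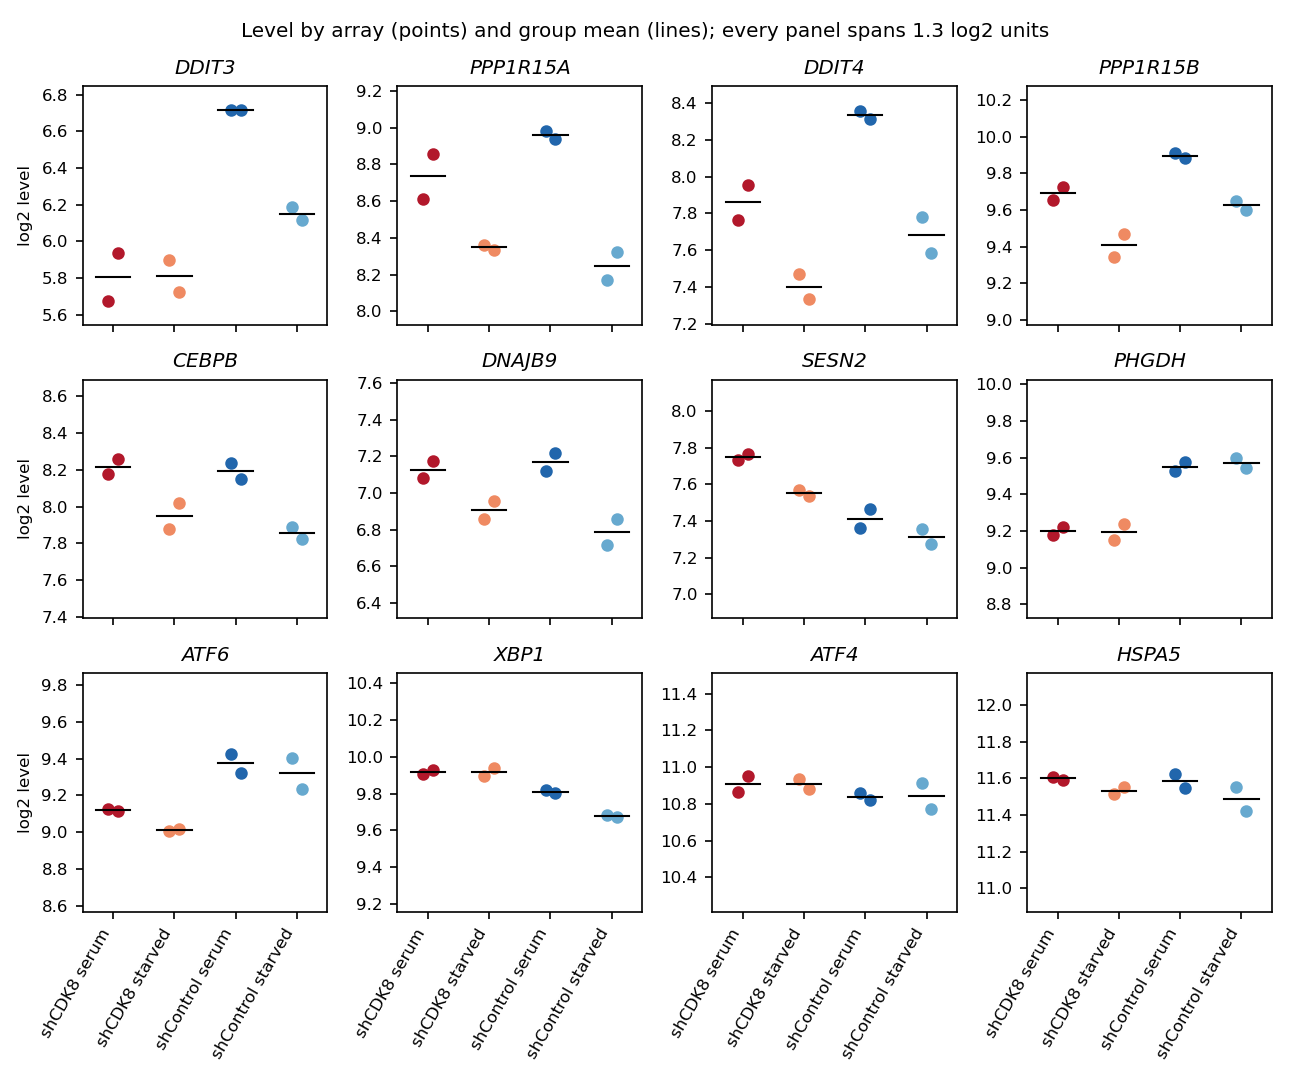
Log2 level of 12 of the genes on each array (points) with group means (lines), for shCDK8 serum, shCDK8 starved, shControl serum and shControl starved from left to right. All panels have the same height in log2 units. DDIT3 sits at 6.72 on both serum arrays of shControl and between 5.68 and 6.19 on the other 6, while ATF4 and HSPA5 are nearly flat.

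The lines were then compared in each condition. These contrasts share arrays with the serum contrasts, so a low or high group enters both. After serum, SESN2 was the 1 gene of the 37 that rose in shCDK8 cells, where 7.7% of all genes rose, and DDIT3, DDIT4 and PHGDH fell, where 6.54% of all genes fell. The median difference was -0.04 over the 37 genes and -0.01 over all genes. In starved cells XBP1 and SESN2 rose in shCDK8 cells, 2 genes where 7.13% of all genes rose, and DDIT3, ATF6 and PHGDH fell, 3 genes where 6.28% fell. The median was 0.01, against -0.01 over all genes. At an unadjusted p below 0.05 there were 10 of the 37 genes in each condition, and 4806 of all genes after serum and 4654 in starved cells. The share of the 37 genes called was thus near that of all genes.

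DDIT3 had the largest difference of the 37 genes after serum. It averaged 5.81 ± 0.19 in serum-treated shCDK8 cells and 6.72 ± 0.00 in serum-treated shControl cells (SD, n = 2 each), which was 1.88-fold lower in shCDK8 cells (-0.91 ± 0.10 SE, adjusted p = 0.000220). It averaged 5.81 ± 0.12 in starved shCDK8 cells and 6.15 ± 0.05 in starved shControl cells, which was 1.27-fold lower (-0.34 ± 0.10, adjusted p = 0.0436). The groups did not overlap in either condition. The call after serum held without any 1 array, while the call in starved cells ended without any 1 of the 4 starved arrays or either serum array of shControl (adjusted p = 0.0557 to 0.247).

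PHGDH, the first enzyme of serine synthesis from glucose, read 9.18 and 9.22 in serum-treated shCDK8 cells and 9.53 and 9.57 in serum-treated shControl cells, and fell by 0.35 on the log2 scale (SE 0.07, adjusted p = 0.00650). It read 9.15 and 9.24 in starved shCDK8 cells and 9.60 and 9.54 in starved shControl cells, and fell by 0.37 (SE 0.07, adjusted p = 0.00482). All 4 shCDK8 arrays lay below all 4 shControl arrays. The call in starved cells held without any 1 array, and that after serum ended without serum array 2 of shControl (adjusted p = 0.0566). A probe set annotated to both MZT2B and PHGDH differed by 0.04 after serum and 0.00 in starved cells, neither past the threshold, so the fall was seen on the PHGDH probe set alone.

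DDIT4 read 7.77 and 7.96 in serum-treated shCDK8 cells and 8.36 and 8.31 in serum-treated shControl cells. It was 1.39-fold lower in shCDK8 cells (-0.47 ± 0.09, adjusted p = 0.00787), a call that ended without serum array 1 of either line (0.0570 and 0.0611). In starved cells it differed by -0.28 ± 0.09 (adjusted p = 0.0809). The shCDK8 arrays were lower in each condition.

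SESN2, a leucine-binding inhibitor of mTORC1 and an ATF4 target, went the other way. It read 7.73 and 7.77 in serum-treated shCDK8 cells and 7.36 and 7.46 in serum-treated shControl cells, a rise of 0.34 ± 0.07 or 1.26-fold (adjusted p = 0.00900). It read 7.57 and 7.54 in starved shCDK8 cells and 7.35 and 7.27 in starved shControl cells, a rise of 0.24 ± 0.07 (adjusted p = 0.0461). All 4 shCDK8 arrays lay above all 4 shControl arrays. The call after serum ended without serum array 2 of shCDK8 or serum array 1 of shControl (adjusted p = 0.0548 to 0.0834), and that in starved cells without any 1 of the 8 arrays (0.0615 to 0.204).

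The ER stress transcription factors ATF6 and XBP1 moved in opposite directions in starved cells. ATF6 read 9.01 and 9.02 in starved shCDK8 cells and 9.41 and 9.24 in starved shControl cells, and fell by 0.31 on the log2 scale (SE 0.08, adjusted p = 0.0244). After serum it read 9.13 and 9.12 in shCDK8 cells and 9.42 and 9.32 in shControl cells (-0.25 ± 0.08, adjusted p = 0.0541). All 4 shCDK8 arrays were lower.

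XBP1 read 9.89 and 9.94 in starved shCDK8 cells and 9.68 and 9.67 in starved shControl cells, a rise of 0.24 ± 0.06 (adjusted p = 0.0297). After serum it read 9.91 and 9.93 in shCDK8 cells and 9.82 and 9.80 in shControl cells (0.11 ± 0.06, adjusted p = 0.318). All 4 shCDK8 arrays were higher, and the array values do not separate spliced from unspliced XBP1. The ATF6 call ended without either starved array of shCDK8 or starved array 1 of shControl (adjusted p = 0.0980 to 0.140), and the XBP1 call without any 1 of the 4 starved arrays or either serum array of shControl (0.0531 to 0.151).

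**Figure D5:**
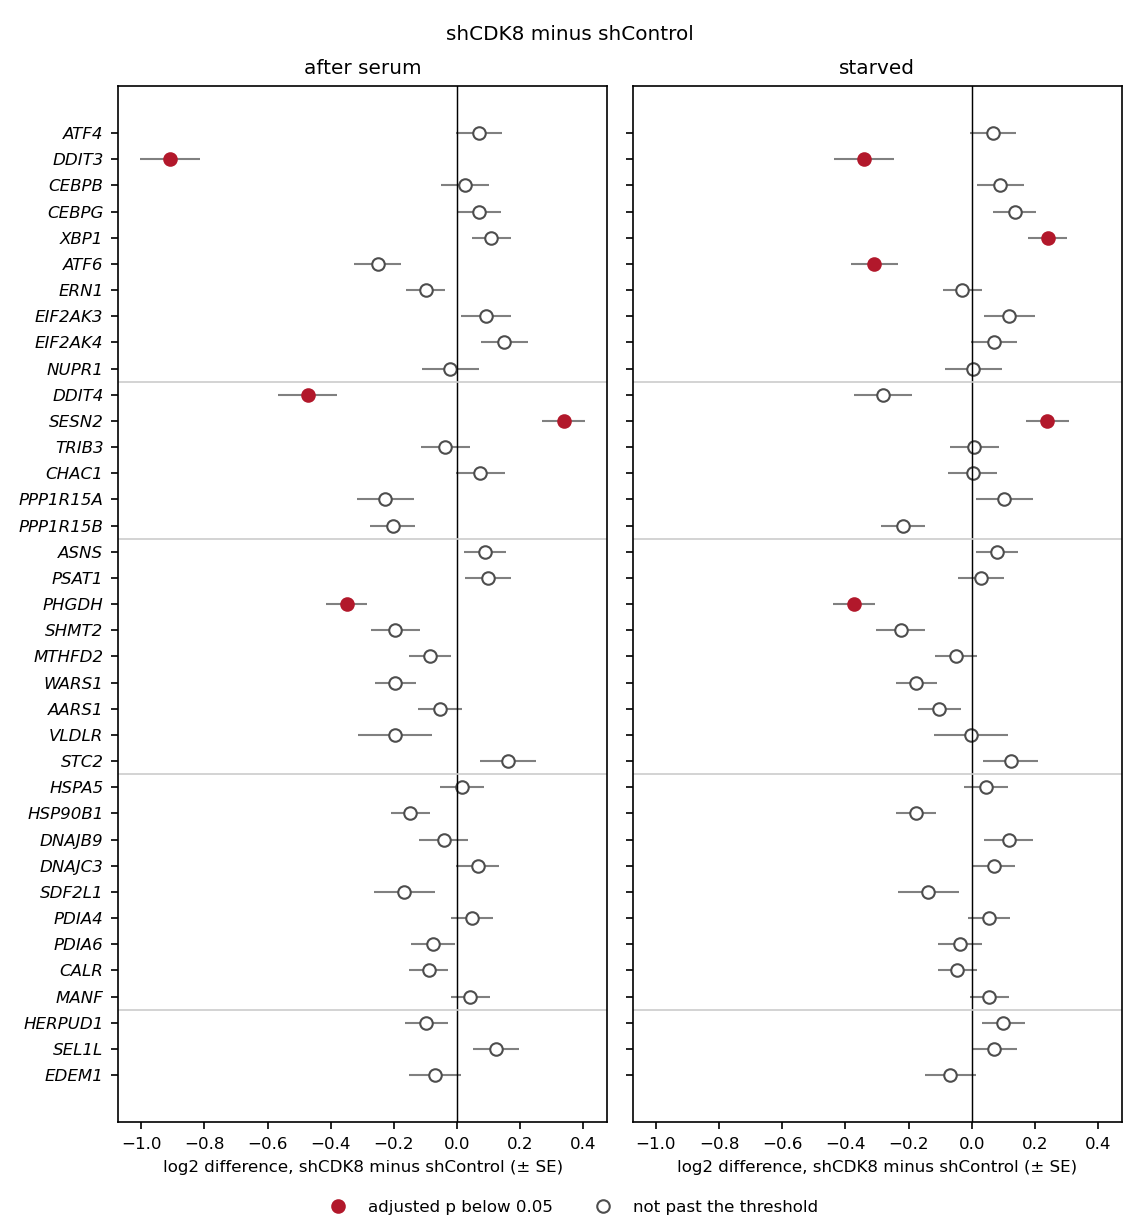
Log2 difference between the lines (shCDK8 minus shControl, ± SE) for each of the 37 genes after serum (left) and in starved cells (right), with filled points for an adjusted p below 0.05. DDIT3, PHGDH and SESN2 are filled in both panels. DDIT3 is the leftmost point after serum at -0.91, and most chaperones lie close to 0.

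Averaged over both conditions, 2 of the 37 genes rose in shCDK8 cells, where 12% of all genes rose, and 8 fell, where 11.3% of all genes fell. SESN2 rose by 0.29 ± 0.05 (adjusted p = 0.00180) and XBP1 by 0.17 ± 0.04 (0.0161). DDIT3 fell most (-0.62 ± 0.07, adjusted p = 0.000122), followed by DDIT4 (-0.38), PHGDH (-0.36), ATF6 (-0.28), PPP1R15B (-0.21, adjusted p = 0.0117), SHMT2 (-0.21, 0.0208), WARS1 (-0.19, 0.0146) and HSP90B1 (-0.16, 0.0247). The 8 falls took in 2 of 10 sensors and transcription factors, 2 of 6 stress-induced regulators, 3 of 9 amino acid and other ATF4 targets, 1 of 9 chaperones and none of 3 degradation factors. The median was -0.01 over the 37 genes and over all genes. The averages share the arrays of the contrasts above.

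SHMT2, the mitochondrial serine hydroxymethyltransferase that passes serine carbon to the folate pool, read 9.89 and 10.02 after serum and 9.88 and 9.97 in starved shCDK8 cells, and 10.17 and 10.13 after serum and 10.23 and 10.07 in starved shControl cells. WARS1, the tryptophanyl-tRNA synthetase, read 8.77 and 8.73 after serum and 8.73 and 8.71 in starved shCDK8 cells, and 8.95 and 8.94 after serum and 8.85 and 8.94 in starved shControl cells. In both genes every shCDK8 array lay below every shControl array.

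HSP90B1 (GRP94), the ER member of the HSP90 family, read 12.22 and 12.14 after serum and 12.15 and 12.14 in starved shCDK8 cells, and 12.33 and 12.33 after serum and 12.32 and 12.32 in starved shControl cells. It was lower on every shCDK8 array. Of the other ERSE genes XBP1 was higher, as given above, and HSPA5, PDIA6 and CALR differed between lines by 0.03, -0.06 and -0.07, none past the threshold. The averaged calls of DDIT3, DDIT4, PHGDH, ATF6, PPP1R15B and SESN2 held without any 1 array. That of XBP1 ended without starved array 2 of shCDK8 or serum array 2 of shControl (adjusted p = 0.0565 to 0.0574), of SHMT2 without array 1 of any of the 4 groups (0.0697 to 0.0741), of WARS1 without serum array 1 of shControl (0.0504), and of HSP90B1 without any 1 array but serum array 1 of shCDK8 (0.0565 to 0.0817).

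All 4 shCDK8 arrays lay above all 4 shControl arrays for 3 of the 37 genes (CEBPG, XBP1 and SESN2), where 13% of all genes did, and below them for 8 (DDIT3, ATF6, PHGDH, SHMT2, WARS1, AARS1, HSP90B1 and CALR), where 12.5% did. Of the subunits that direct the eIF2 phosphatase, PPP1R15B differed between lines by -0.20 after serum and -0.22 in starved cells, and PPP1R15A by -0.23 and 0.10, none past the threshold in a single condition.

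The wider pathway was described with 114 further measured genes of 122 listed. With serum, 2 of the 114 rose in each line and none fell, where 0.25% of all genes rose in shCDK8 cells and 0.424% in shControl cells. ATF3, an immediate-early bZIP factor that ATF4 also induces, rose by 2.68 ± 0.21 in shCDK8 cells (adjusted p = 0.000380) and by 3.18 ± 0.21 in shControl cells (6.74e-05). GDF15, a secreted stress ligand, rose by 0.68 ± 0.10 in shCDK8 cells (0.0256) and by 1.09 ± 0.10 in shControl cells (0.000692). The call of GDF15 in shCDK8 cells ended without any 1 of 5 arrays, the 4 starved arrays and serum array 2 of shCDK8 (0.249 at most). None of the 17 amino acid synthesis and transport genes, 17 aminoacyl-tRNA synthetases, 20 chaperones and oxidoreductases or 35 degradation and translocation genes passed with serum in either line.

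Between the lines 8 of the 114 genes rose in shCDK8 cells and 10 fell after serum, where 7.7% of all genes rose and 6.54% fell. In starved cells 5 of the 114 rose and 11 fell, where 7.13% of all genes rose and 6.28% fell. The genes named below are single calls and are not read as a result about the pathway. The largest difference was in SEC31A, a coat protein of vesicles that leave the ER, which averaged 8.49 in serum-treated shCDK8 cells and 9.92 in serum-treated shControl cells (-1.43 ± 0.08, adjusted p = 4.63e-06) and 8.31 and 9.90 in starved cells of the same lines (-1.59 ± 0.08, 2.42e-06). The coat subunits SEC23B and SEC24D were lower in shCDK8 cells too, by 0.33 and 0.31 on the log2 scale after serum. In starved cells they were lower by 0.36 and 0.38. SPCS3, a signal peptidase subunit, was lower in shCDK8 cells by 0.36 after serum and by 0.27 in starved cells.

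The differences below are again those of shCDK8 from shControl cells within a condition, not serum changes. Of 17 further genes of amino acid synthesis and transport, 3 were higher and 1 was lower in shCDK8 cells after serum. In starved cells 1 was higher and 1 was lower. The shares of all genes were 7.7% higher and 6.54% lower after serum, and 7.13% higher and 6.28% lower in starved cells. The glutamine transporter SLC1A5 was lower in shCDK8 cells by 0.41 after serum and by 0.45 in starved cells. The mitochondrial folate enzyme MTHFD1L was higher in shCDK8 cells by 0.31 in both conditions. After serum the cystine transporter SLC7A11 (0.42) and the proline synthesis enzyme ALDH18A1 (0.24) were higher as well. Of 17 aminoacyl-tRNA synthetases, 1 was higher in shCDK8 cells after serum, the seryl-tRNA synthetase SARS1 (0.26). None of them was lower, and none passed in starved cells. Of the stress factors, the double-stranded RNA sensor EIF2AK2 was higher in shCDK8 cells by 0.45 after serum and 0.29 in starved cells. After serum GDF15 was lower by 0.43 in shCDK8 than in shControl cells, although it rose with serum in each line.

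Of 20 chaperones and oxidoreductases outside the 37, 1 was higher and 2 were lower in shCDK8 than in shControl cells after serum. In starved cells 2 were higher and 3 were lower. Of 35 degradation and translocation genes, which include the coat subunits above, 2 were higher and 6 were lower in shCDK8 cells after serum. In starved cells 1 was higher and 7 were lower. Among all genes 7.7% were higher and 6.54% lower after serum, and 7.13% higher and 6.28% lower in starved cells. The ER reductase DNAJC10 was higher in shCDK8 cells by 0.28 after serum and 0.31 in starved cells. HERPUD2, a relative of HERPUD1, was higher by 0.27 and 0.36. The ER membrane protein WFS1 was higher in shCDK8 cells by 0.39 after serum and the prolyl isomerase FKBP14 by 0.38 in starved cells. The co-chaperone DNAJC1 was lower in shCDK8 cells by 0.38 in both conditions. The thioredoxin domain proteins TXNDC11 and ERP44 were lower by 0.31 and 0.26 in starved cells, and the oxidase ERO1B by 0.31 after serum.

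Averaged over both conditions, 14 of the 114 genes rose and 19 fell in shCDK8 cells, where 12% of all genes rose and 11.3% fell. Genes named from the average alone were the haem-regulated eIF2 kinase EIF2AK1 (0.16), the synthetases CARS1 (0.18) and QARS1 (0.14) and the translocon-associated SSR4 (0.15), which rose, and EIF2B3 (-0.17), a subunit of the eIF2 exchange factor, and the transsulphuration enzyme CTH (-0.29), which fell. With the 8 arrays left out 1 at a time, each of these 6 calls ended in at least 5 cases (adjusted p at most 0.135). Without any 1 array, 3 of the 18 calls after serum held in every case (SEC31A, SPCS3 and EIF2AK2), 5 of the 16 in starved cells (SEC31A, SEC23B, SEC24D, SLC1A5 and HERPUD2) and 19 of the 33 in the average. The other 15 calls after serum and the other 11 in starved cells ended without at least 1 array (adjusted p at most 0.249 and 0.188).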

How the data were processed

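Per the submitters' processing notes, the authors made the deposited log2 values with RMA, which corrects background, equalises the distributions of arrays and summarises probes. For its version, the build and the joint handling of arrays, the sources used here give nothing. Of 33297 probe sets, 21214 were annotated, 19460 of them to 1 gene, and 19429 of these were matched by Entrez identifier to a RefSeq table (GRCh38.p14, used for names), with 0 symbols changed. The probe set with the highest mean stood for a gene, which gave 18417 genes. Values were used as deposited, with no filter.

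Group means of all 8 arrays were fitted with limma 3.58.1 in R 4.3.3 (4 residual and 5.49 prior degrees of freedom), for 7 contrasts. P-values were two-sided, adjusted by Benjamini-Hochberg over all 18417 genes, and called below 0.05. Errors of changes are standard errors and n is 2 arrays per group. The 37 genes, the lists and the rule for named genes were chosen with earlier results of these data known. That rule names every one of the 37, by array where it passes, and per further list and contrast up to 3 rises and 3 falls with the largest changes. The 12 genes plotted by array and a few values beside them were chosen after their values were seen. In simulated data for the serum contrast of shControl cells with 18417 genes, 50 genes were shifted at each size. Log2 shifts of 0.3 were recovered in 22% of genes, of 0.5 in 60%, of 1 in 96% and of 2 in 100%. There were 3 false calls among 142. Recovery depends on how many genes are shifted, so these shares need not hold for the real contrast, where 78 genes rose and 7 fell. Replicate numbers did not pair the samples. The alternatives tried were a replicate block, a variance trend, filters, scaling, probe set choice and left-out arrays. Figures were drawn with matplotlib 3.10.9.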

Additional observations from a re-analysis of the deposited data

How the results depend on the processing

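No call of the 37 genes reversed its direction under any alternative run, and the 10 of 27 calls that held without any 1 array are given above. With 1 array left out, its group keeps a single array that is assumed to vary like the others. The number of genes called then ran from 0 to 3 for serum in shControl cells (3 as reported), from 2 to 5 between lines after serum (4), from 1 to 4 between lines in starved cells (5), from 2 to 3 for the serum average (5) and from 7 to 10 for the line average (10), and stayed 0 for serum in shCDK8 cells and for the difference of responses. An intensity trend in the variance prior raised the counts to 5 for serum in shControl cells, 3 in shCDK8 cells (0 as reported), and 9 between lines in each condition. The shares of all genes called under the alternatives are not given here, so these counts are not read as a result about the 37 genes. Fitting the compared groups alone left 2 genes between lines in starved cells. A minimum change of 1.5-fold left 1 gene between lines after serum, 0 in starved cells, 0 in the serum average and 1 in the line average, by construction. Cyclic loess, centring on array medians, leaving out genes below the 25th percentile and averaging probe sets kept every count within 1.5 times.

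The replicate numbers are not treated as pairs, since the correlations of numbered deviations were 0.126 and 0.0850 within the shCDK8 and shControl lines, 0.0994 between lines after serum and -0.186 between lines in starved cells. With the replicate block, 2 genes passed for serum in shControl cells, 0 in shCDK8 cells, 4 between lines after serum, 3 in starved cells, 0 for the difference, 3 for the serum average and 10 for the line average. A crossed block for starved cells, chosen after seeing the data, left 4. For serum in shControl cells, the contrast simulated, 22% of shifts of 0.3 were recovered, and the other contrasts were not simulated. With 2 arrays a group, genes not called are not shown to be unchanged.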
